A study of Mus musculus with 6 samples.

Results

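Transcripts of 10 genes known from neutrophils were followed in RNA libraries made from purified mouse liver CD8+ T cells. The genes were taken by name, with earlier results of these data known: S100a8, S100a9, Cxcr2, Csf3r, Lcn2, Ngp, Camp, Retnlg, Il1b and Hp. All 10 were found once each among the 54532 genes of the count table. Bulk RNA sequencing covered 3 libraries in each of the groups labelled CUMS and control, from mice of a study on chronic stress and CD8+ T cells of the liver. The genotype field reads CUMS for the first group and Wild type for the controls. The labels spell out neither the abbreviation nor the strain, age, sex, stress schedule or purification method. They also do not say whether replicates came from separate animals, so the spread behind each p-value is that of these libraries and may be technical.

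Neutrophils are short-lived granulocytes made in the bone marrow under the cytokine G-CSF and called into tissue through the chemokine receptor CXCR2. They fill their granules in stages. Primary granule proteins such as myeloperoxidase are transcribed in early precursors, secondary granule proteins such as lactoferrin, cathelicidin and NGP in later ones, and mature cells carry mainly calprotectin, gelatinase granule and receptor transcripts. Many neutrophils lodge in the narrow sinusoids of the liver, from which liver lymphocytes are also isolated. Several of the 10 genes are not exclusive to neutrophils: monocytes make S100a8, S100a9 and Il1b, and hepatocytes secrete haptoglobin.

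The libraries held 14902248 to 18023206 counted reads. CD8+ T cell identity was plain in all of them, with the coreceptor gene Cd8a at 1218, 1162 and 1161 CPM in CUMS replicates 1, 2 and 3, against 820.0, 741 and 838 CPM in control replicates 1, 2 and 3. CPM is a gene's count divided by the library total in units of 1000000, scaled by TMM factors. CUMS replicates 2 and 3 lacked reads for more of the scarce genes than the other libraries did. Of 2332 genes with a mean of 2 to 8 CPM, 2.74% and 3.86% had no read in CUMS replicates 2 and 3, against 0% in each other library. In the range of 50 to 200 CPM no library lacked reads for any of 3307 genes.

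Neutrophil transcripts were abundant in these libraries and lower in the CUMS group. The 10 genes together took 0.253%, 0.243% and 0.223% of all reads in CUMS replicates 1, 2 and 3, against 0.350%, 0.564% and 0.353% in control replicates 1, 2 and 3. The groups did not overlap, and control replicate 2 stood well above every other library. Exact Clopper-Pearson 95% intervals were narrow, from 0.221 to 0.225% in the lowest library and from 0.561 to 0.568% in the highest, and cover counting error only. In a bulk library, fewer neutrophils and less of these transcripts per neutrophil cannot be told apart.

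Of the 10 genes, 9 passed the filter on low counts and were tested with the 14054 genes of the whole table, and Camp did not pass. With edgeR's quasi-likelihood test and Benjamini-Hochberg adjustment over all genes tested, S100a9, Cxcr2, Lcn2 and Il1b fell in CUMS, none of the 10 rose, and S100a8, Csf3r, Ngp, Retnlg and Hp missed the threshold of 0.05. The share of all tested genes called lower was 0.946%. All 9 had an unadjusted p under 0.05, as did 15.3% of all genes tested. DESeq2 called 6 of the 9 and 4.58% of all genes, and limma voom 7 of the 9 and 3.54% of all genes. In 9 of the 10 genes every CUMS library lay below every control library, which was so for 11.9% of all genes tested. The median log2 fold change of the 9 tested genes was -0.90, and that of all genes tested was -0.01. The count of 4 depended on single libraries: it was 1 without CUMS replicate 1, 0 without CUMS replicate 2, 3 without CUMS replicate 3, 4 without control replicate 1, 1 without control replicate 2 and 2 without control replicate 3.

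**Figure D1:**
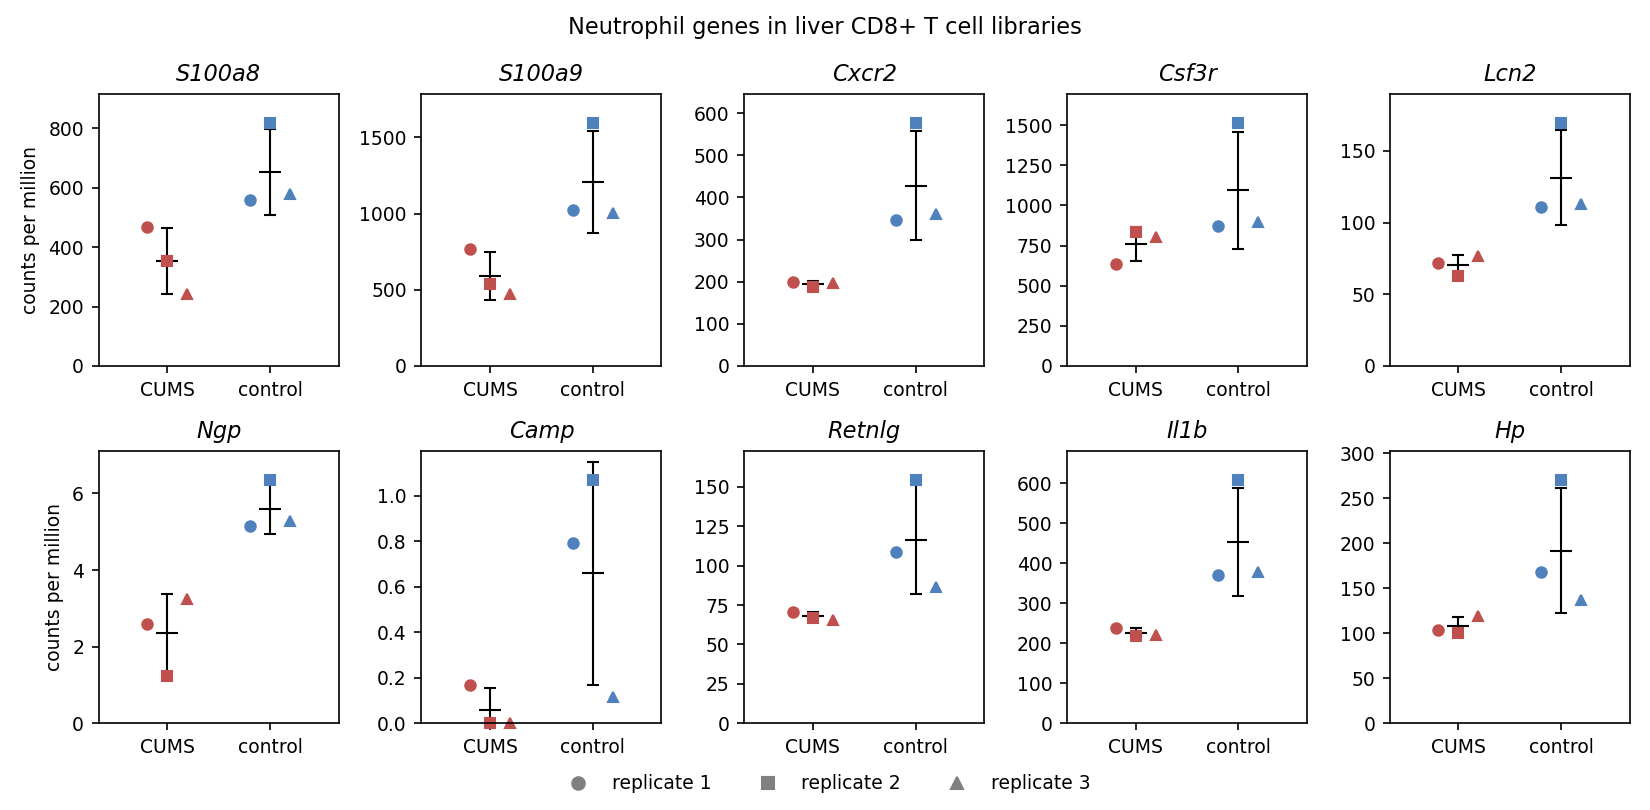
Level of each of the 10 neutrophil genes in CPM (vertical axes, linear from 0) in 3 CUMS and 3 control libraries; symbols mark the replicate number, and the bars show mean and SD of 3 libraries. Control replicate 2 is the highest library in every panel, and only Camp has groups that overlap.

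**Figure D2:**
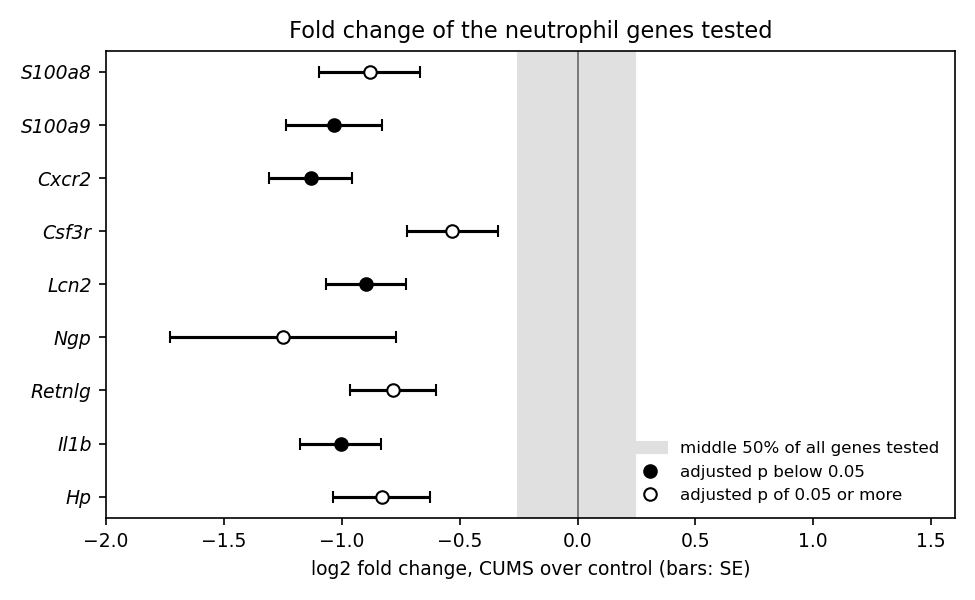
Log2 fold change of CUMS over control (horizontal axis) for the 9 neutrophil genes tested, with SE from edgeR's quasi-likelihood fit; filled points have an adjusted p below 0.05, and the grey band spans the middle 50% of all genes tested, from -0.25 to 0.24. Every point lies left of the band, Csf3r nearest to it.

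S100a8 and S100a9 encode the calcium-binding subunits that pair as calprotectin, the most abundant cytosolic protein complex of neutrophils. Their genes lie near each other on chromosome 3 (S100a8, ENSMUSG00000056054, mm10 chromosome 3, 90668978 to 90670035, plus strand; S100a9, ENSMUSG00000056071, mm10 chromosome 3, 90692632 to 90695721, minus strand). The windows below span 250 bases before and 50 bases after the annotated start, as given by RefSeq for GRCm38.p6, the build of mm10, and those of Cxcr2 and Il1b are shown with them because S100a9, Cxcr2 and Il1b passed the test and S100a8 is the partner of S100a9. Capitals mark 3 short motifs searched on both strands with the promoters in view: TTNCNNAA, a core of sites for C/EBP factors, GAGGAA, a core of sites for PU.1, and TATAAA, the TATA box. TTCCTC in capitals is GAGGAA read on the other strand. S100a8 and Il1b carry TATAAA 30 and 31 bases before the start, and S100a9 carries it at the annotated start itself. The S100a8 match to GAGGAA that begins 36 bases before the start abuts its TATA box without overlapping it, and no other matches touch each other in these windows.
S100a8, chr3:90668821-90669120, plus strand: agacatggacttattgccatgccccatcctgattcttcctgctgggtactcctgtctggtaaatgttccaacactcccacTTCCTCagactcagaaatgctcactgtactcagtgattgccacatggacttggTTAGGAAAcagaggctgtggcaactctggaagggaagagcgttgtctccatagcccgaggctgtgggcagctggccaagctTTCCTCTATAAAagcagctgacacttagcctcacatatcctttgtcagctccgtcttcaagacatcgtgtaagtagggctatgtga
S100a9, chr3:90695672-90695971, minus strand: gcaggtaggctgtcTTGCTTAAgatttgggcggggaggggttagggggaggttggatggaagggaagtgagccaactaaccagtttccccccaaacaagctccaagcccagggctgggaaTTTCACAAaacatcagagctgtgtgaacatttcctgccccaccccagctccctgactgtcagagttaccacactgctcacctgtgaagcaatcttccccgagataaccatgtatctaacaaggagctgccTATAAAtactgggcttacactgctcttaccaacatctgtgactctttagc
Cxcr2, chr1:74153744-74154043, plus strand: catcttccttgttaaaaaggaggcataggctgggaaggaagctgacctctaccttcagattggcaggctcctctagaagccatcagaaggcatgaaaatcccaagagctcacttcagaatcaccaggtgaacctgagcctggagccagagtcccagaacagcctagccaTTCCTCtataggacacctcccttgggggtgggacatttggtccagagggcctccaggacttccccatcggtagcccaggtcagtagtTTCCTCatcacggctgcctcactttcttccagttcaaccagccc
Il1b, chr2:129371090-129371389, minus strand: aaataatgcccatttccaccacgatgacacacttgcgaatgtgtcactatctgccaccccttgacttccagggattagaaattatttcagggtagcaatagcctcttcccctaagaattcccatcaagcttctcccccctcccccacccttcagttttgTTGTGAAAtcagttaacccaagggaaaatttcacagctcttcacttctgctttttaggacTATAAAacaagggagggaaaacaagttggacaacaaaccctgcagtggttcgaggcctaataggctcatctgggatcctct

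Windows were found for 9 of the 10 genes. TTNCNNAA occurred in 6 of the 9, those of S100a8, S100a9, Il1b, Lcn2, Ngp and Retnlg, and in 40.7% of 32851 promoters of the same length. GAGGAA occurred in 4, those of S100a8, Cxcr2, Csf3r and Lcn2, and in 28.3% of all promoters. TATAAA occurred in 3, those of S100a8, S100a9 and Il1b, and in 13.6% of all promoters. The receptor genes Cxcr2 and Csf3r thus shared GAGGAA and lacked the other motifs in this window. These matches describe the letters only.

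S100a9 was the most abundant of the 10 genes per kilobase of gene length. It had 766, 538 and 469 CPM in CUMS replicates 1, 2 and 3, against 1025, 1596 and 1006 CPM in control replicates 1, 2 and 3. The groups were separate, CUMS replicate 1 was the highest of its group, and the mean level was 591 ± 156 CPM in CUMS libraries and 1209 ± 335 CPM in control libraries (SD, n = 3 each). The difference was 2.05-fold (log2 fold change -1.03 ± 0.20 SE, edgeR adjusted p = 0.0363). This call was lost without any one of CUMS replicates 2 and 3 and control replicates 2 and 3 (edgeR adjusted p = 0.134, 0.0749, 0.158 and 0.0688). Its log2 fold change was -0.67 with CUMS replicate 1 as the sole CUMS library. The lowest adjusted p of S100a9 among the alternatives, 4.52e-13, came from edgeR with no filter. DESeq2 gave an adjusted p of 0.0253, limma voom 0.00782, and edgeR without 1 library 0.0375 to 0.158.

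S100a8 had 466, 354 and 242 CPM in CUMS replicates 1, 2 and 3, against 559, 819 and 579 CPM in control replicates 1, 2 and 3. CUMS replicates 1 and 3 thus differed more from each other than CUMS replicate 1 did from control replicate 1. At -0.88 ± 0.21 on the log2 scale, S100a8 missed the threshold (edgeR adjusted p = 0.0717). It passed at 0.0378 with a stricter filter on low counts, which tests fewer genes, and at 0.0150 with limma voom and sample weights. Its lowest adjusted p among the alternatives, 1.50e-09, came from edgeR with no filter. Without 1 library, edgeR gave S100a8 an adjusted p of 0.0516 to 0.313. The ratio of S100a8 to S100a9, both per kilobase of gene length, was 0.457, 0.495 and 0.388 in CUMS replicates 1, 2 and 3, against 0.410, 0.386 and 0.433 in control replicates 1, 2 and 3. The groups overlapped in this ratio, with means of 0.447 ± 0.054 in CUMS and 0.410 ± 0.024 in control libraries (SD, n = 3 each).

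Cxcr2 encodes the receptor for the chemokines that draw neutrophils out of marrow and blood (ENSMUSG00000026180, mm10 chromosome 1, 74153989 to 74161246, plus strand). It had 200.4, 189 and 197 CPM in CUMS replicates 1, 2 and 3, against 346, 578 and 361 CPM in control replicates 1, 2 and 3. The 3 CUMS libraries lay close together and all below the controls, with a mean of 195 ± 6.04 CPM in CUMS libraries and 428 ± 129.7 CPM in control libraries (SD, n = 3 each). Among the 9 tested genes its p was the smallest, with a 2.19-fold difference (log2 fold change -1.13 ± 0.17, edgeR adjusted p = 0.0164). Its call was lost without CUMS replicate 1, at an edgeR adjusted p of 0.0539, and without CUMS replicate 2, at 0.0767, with log2 fold changes of -1.16 and -1.11. The lowest adjusted p of Cxcr2 among the alternatives, 8.78e-16, came from edgeR with no filter. DESeq2 gave an adjusted p of 8.54e-09, limma voom 0.00862, and edgeR without 1 library 0.0155 to 0.0767.

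Csf3r encodes the receptor for G-CSF, which drives neutrophil production and survival (ENSMUSG00000028859, mm10 chromosome 4, 126024550 to 126044440, plus strand). It had 637, 834 and 802 CPM in CUMS replicates 1, 2 and 3, against 872, 1515 and 896 CPM in control replicates 1, 2 and 3. Its groups came nearest to touching, since CUMS replicate 2 lay just under control replicate 1, and CUMS replicate 1 was here the lowest of all libraries. On the log2 scale the difference was -0.53 ± 0.19, the smallest in size among the 9 tested genes, and it missed the threshold (edgeR adjusted p = 0.218). Without control replicate 2 it was -0.23. The one alternative under which Csf3r passed was the fit with no filter.

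Because Csf3r differed least between groups, the other genes were also set against it within each library, as ratios of levels per kilobase. These ratios were chosen after the values were seen and were not tested. With the least changed gene as divisor, ratios lower on average in CUMS were largely fixed by that choice. Cxcr2 over Csf3r was 0.372, 0.268 and 0.290 in CUMS replicates 1, 2 and 3, against 0.470, 0.451 and 0.476 in control replicates 1, 2 and 3. The groups were separate, and the controls held a narrow range. Il1b over Csf3r was likewise lower in each CUMS library, at 0.710, 0.495 and 0.519 in CUMS replicates 1, 2 and 3, against 0.804, 0.760 and 0.801 in control replicates 1, 2 and 3. Ngp over Csf3r did not overlap between groups either. S100a9 over Csf3r was 8.32, 4.46 and 4.04 in CUMS replicates 1, 2 and 3, against 8.13, 7.28 and 7.76 in control replicates 1, 2 and 3. CUMS replicate 1 thus had a calprotectin to receptor ratio above that of every control, while CUMS replicates 2 and 3 had ratios below every control. S100a8 over Csf3r split the same libraries the same way, at 3.80, 2.21 and 1.57 in CUMS replicates 1, 2 and 3, against 3.33, 2.81 and 3.36 in control replicates 1, 2 and 3. The ratios of Lcn2, Retnlg and Hp to Csf3r overlapped between groups.

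**Figure D3:**
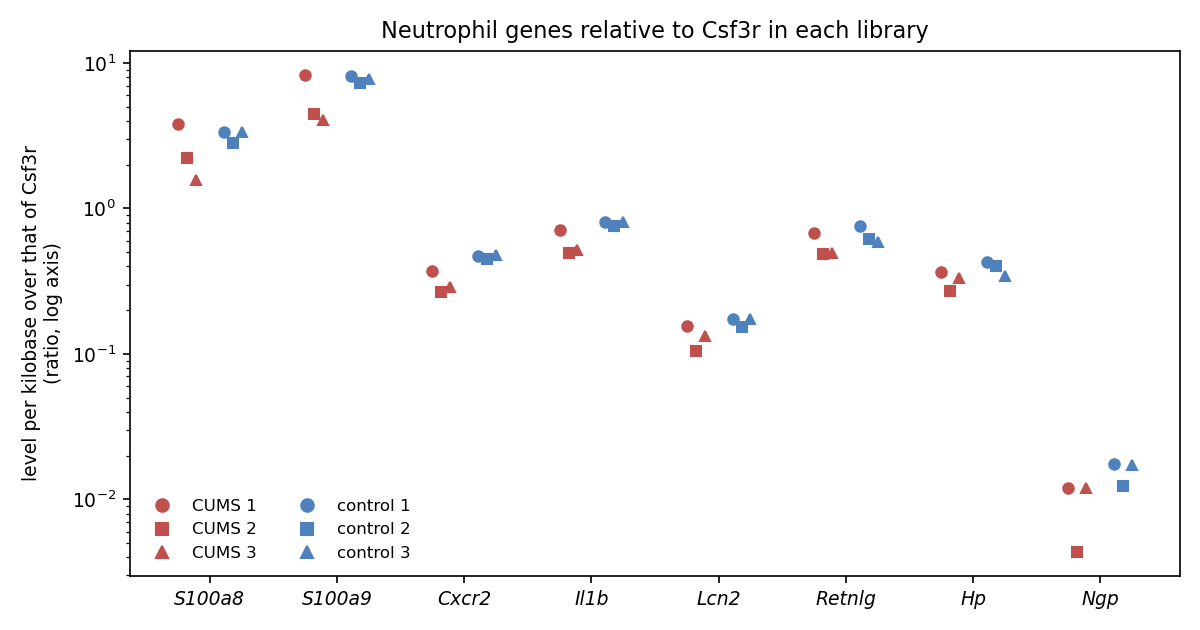
Level per kilobase of 8 neutrophil genes divided by that of Csf3r in the same library (log axis), for 3 CUMS and 3 control libraries, each point a library. Cxcr2, Il1b and Ngp separate the groups, whereas S100a8 and S100a9 place CUMS replicate 1 above the controls and CUMS replicates 2 and 3 below them.

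Il1b encodes the inflammatory cytokine interleukin 1 beta, made by neutrophils as well as by monocytes and macrophages (ENSMUSG00000027398, mm10 chromosome 2, 129364570 to 129371139, minus strand). It had 239, 218 and 220.1 CPM in CUMS replicates 1, 2 and 3, against 371, 609 and 379.5 CPM in control replicates 1, 2 and 3. The CUMS libraries lay close together, and all of them lay below the controls. The difference was 2.01-fold (log2 fold change -1.005 ± 0.17, edgeR adjusted p = 0.0226). Its call was lost without CUMS replicate 1, CUMS replicate 2 or control replicate 2 (edgeR adjusted p = 0.0624, 0.0913 and 0.0506). The lowest adjusted p of Il1b among the alternatives, 1.69e-12, came from edgeR with no filter. DESeq2 gave an adjusted p of 4.20e-07, limma voom 0.0132, and edgeR without 1 library 0.0252 to 0.0913. Il1b and Cxcr2 kept nearly the same ratio per kilobase, 1.91, 1.85 and 1.79 in CUMS replicates 1, 2 and 3, against 1.71, 1.68 and 1.68 in control replicates 1, 2 and 3, slightly higher in each CUMS library. Il1b overlaps the antisense gene Il1bos, whose own row held 0 to 67 reads. No other of the 10 genes overlaps an annotated gene in the deposited coordinates.

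Lcn2 encodes lipocalin 2, a granule protein that withholds iron from bacteria by binding their siderophores (ENSMUSG00000026822, mm10 chromosome 2, 32384633 to 32388252, minus strand). It had 71.8, 63.0 and 76.8 CPM in CUMS replicates 1, 2 and 3, against 111, 169.7 and 113 CPM in control replicates 1, 2 and 3. Every CUMS library lay below every control, and the difference was 1.86-fold (log2 fold change -0.90 ± 0.17, edgeR adjusted p = 0.0304). The call for Lcn2 did not hold without CUMS replicate 1 or 2 or control replicate 2 or 3 (edgeR adjusted p = 0.0742, 0.114, 0.133 and 0.0686). The lowest adjusted p of Lcn2 among the alternatives, 1.49e-08, came from edgeR with no filter. DESeq2 gave an adjusted p of 7.36e-05, limma voom 0.0207, and edgeR without 1 library 0.0405 to 0.133.

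Ngp and Camp encode cathelicidin family proteins of secondary granules, Camp the antimicrobial peptide CRAMP, and both are transcribed mainly in bone marrow precursors. They were the scarcest of the 10 genes. Ngp (ENSMUSG00000032484, mm10 chromosome 9, 110419747 to 110423012, plus strand) had 46, 20 and 49 reads in CUMS replicates 1, 2 and 3, against 91, 113 and 92 reads in control replicates 1, 2 and 3. The groups were separate, but the log2 fold change of -1.25 ± 0.48 missed the threshold (edgeR adjusted p = 0.243).

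Camp (ENSMUSG00000038357, mm10 chromosome 9, 109847379 to 109849617, minus strand) had 3, 0 and 0 reads in CUMS replicates 1, 2 and 3, against 14, 19 and 2 reads in control replicates 1, 2 and 3. The groups overlapped, since CUMS replicate 1 held more reads than control replicate 3. A count of 0 allows up to 3 reads, which is 0.185 and 0.198 CPM in CUMS replicates 2 and 3. Summed over libraries, the ratio of CUMS to control was 0.0922 (95% interval 0.0181 to 0.292, counting error only). Among 2979 genes with a mean of 0.2 to 0.6 CPM, 59.1% and 65.1% were unread in CUMS replicates 2 and 3, against 16.8% in CUMS replicate 1 and 19.2 to 35.3% in the controls. The part of these unread genes in the values of Camp and Ngp was not tested.

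Retnlg encodes a secreted protein of the resistin family found in mouse neutrophils (ENSMUSG00000022651, mm10 chromosome 16, 48872621 to 48874496, plus strand). It had 70.9, 67.0 and 65.5 CPM in CUMS replicates 1, 2 and 3, against 109, 154 and 86.4 CPM in control replicates 1, 2 and 3. The CUMS libraries were nearly alike, the controls were spread, and the log2 fold change of -0.78 ± 0.18 missed the threshold (edgeR adjusted p = 0.0617). With DESeq2 it passed (adjusted p = 0.00227), as it did with limma voom, no filter, the stricter filter and protein-coding genes only. Its lowest adjusted p among the alternatives, 2.91e-06, came from edgeR with no filter. Without 1 library, edgeR gave Retnlg an adjusted p of 0.0504 to 0.285.

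Hp encodes haptoglobin, which binds free haemoglobin and is made by hepatocytes and by maturing neutrophils (ENSMUSG00000031722, mm10 chromosome 8, 109575128 to 109579172, minus strand). It had 103, 100.4 and 119 CPM in CUMS replicates 1, 2 and 3, against 168, 270.2 and 137 CPM in control replicates 1, 2 and 3. Every CUMS library was below every control. Hp, at -0.83 ± 0.21 on the log2 scale, missed the threshold (edgeR adjusted p = 0.0795) and passed under the same 5 alternatives as Retnlg, with an adjusted p of 0.00213 in DESeq2. Its lowest adjusted p among the alternatives, 4.89e-08, came from edgeR with no filter. Without 1 library, edgeR gave Hp an adjusted p of 0.0686 to 0.285. Hepatocyte transcripts were scarce in the same libraries. Albumin, Alb, among the most abundant transcripts of hepatocytes, had 6.85, 9.11 and 6.80 CPM in CUMS replicates 1, 2 and 3, against 6.23, 6.30 and 4.24 CPM in control replicates 1, 2 and 3. Per kilobase, Hp exceeded Alb by factors of 22.0, 16.1 and 25.6 in CUMS replicates 1, 2 and 3, against 39.2, 62.6 and 47.2 in control replicates 1, 2 and 3. The summed level of the 12 hepatocyte markers was 15.5 to 23.3 CPM in CUMS libraries, against 9.05 to 14.6 CPM in control libraries, higher in each CUMS library, though none of the 6 tested passed with edgeR, DESeq2 or limma voom, and 1 had an unadjusted p under 0.05 in edgeR, near the 15.3% of all genes.

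Per kilobase of gene length the order of the genes was nearly the same in both groups. S100a9 led with 1132 ± 299 CPM per kilobase in CUMS libraries and 2316 ± 642 in control libraries (SD, n = 3 each). It exceeded Cd8a per kilobase in every library, by factors of 4.38, 3.22 and 2.81 in CUMS replicates 1, 2 and 3, against 8.71, 15.0 and 8.36 in control replicates 1, 2 and 3. S100a8 came second with 510.0 ± 162 CPM per kilobase in CUMS libraries and 940.1 ± 208 in control libraries, and neither overlapped its neighbours in range. Csf3r had 209.9 ± 29.2 CPM per kilobase in CUMS libraries and 303 ± 101 in control libraries. Il1b followed with 118 ± 6.02 CPM per kilobase in CUMS libraries and 237 ± 70.7 in control libraries, and then Retnlg with 114 ± 4.68 in CUMS libraries and 197 ± 58.4 in control libraries. The ranges of Il1b and Retnlg overlapped in each group, and those of Csf3r and Il1b, and of Retnlg and Cxcr2, in the controls. Cxcr2 and Hp were next and changed places, within overlapping ranges. Cxcr2 had 64.1 ± 1.98 CPM per kilobase in CUMS libraries and 140.4 ± 42.5 in control libraries, and Hp had 67.1 ± 6.35 in CUMS libraries and 119 ± 43.4 in control libraries. Lcn2, Ngp and Camp closed the order in both groups.

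The tested genes shared a pattern over the libraries. Of the 9, 5 were lowest in CUMS replicate 2, 3 in CUMS replicate 3 and Csf3r in CUMS replicate 1, and all 9 were highest in control replicate 2. On log2 CPM centred over the 6 libraries, their average stood at -0.34, -0.57 and -0.45 in CUMS replicates 1, 2 and 3, against 0.26, 0.88 and 0.22 in control replicates 1, 2 and 3. The root mean square distance from this mean profile was smallest for Il1b at 0.0540 log2 units and largest for Ngp at 0.419. Without control replicate 2 the median log2 fold change of the 9 genes was -0.69, and only Cxcr2 then passed the threshold of edgeR's test.

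Among 8858 other protein-coding genes whose log2 CPM averaged 3 or more, the profiles nearest to that mean belonged to Ccr1, Cd300lb, Entpd1, Slpi, Fgl2 and Plbd1, at root mean square distances of 0.0334 to 0.0935 log2 units over 6 libraries. Ccr1, a chemokine receptor of myeloid and lymphoid cells, had 70.4, 61.6 and 65.5 CPM in CUMS replicates 1, 2 and 3, against 104, 163 and 108 CPM in control replicates 1, 2 and 3. Like the neutrophil genes, it was highest in control replicate 2 and did not overlap between groups. All 6 were lower in every CUMS library than in any control. Closeness to the mean profile was the rule of choice, so these traits were largely fixed in advance. Slpi, a secreted inhibitor of neutrophil elastase, had 62.4, 50.7 and 62.1 CPM in CUMS replicates 1, 2 and 3, against 93.0, 137 and 80.3 CPM in control replicates 1, 2 and 3. Entpd1, which encodes the ectonucleotidase CD39, had 45.3, 44.2 and 45.6 CPM in CUMS replicates 1, 2 and 3, against 75.8, 117 and 78.1 CPM in control replicates 1, 2 and 3. Likeness in 6 libraries is a description of these libraries. Cd300lb, Fgl2 and Plbd1 overlap a gene on the opposite strand, and the strand setting of the counting is not given in the sources used here.

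Other neutrophil genes, in 4 lists of 40 genes, were mostly lower in CUMS. The lists were chosen by role with earlier results of these data known, so their counts are a description and no separate support. Among the 33 tested, 6 fell in CUMS and 27 missed the threshold, with none higher, where 0.946% of all genes tested were called lower. The median log2 fold change was -0.82, and 21 of the 33 had every CUMS library below every control library, against 11.9% of all genes tested. The fold change was negative for 31 of the 33, and for 50.7% of all genes tested. The exceptions were the chitinase-like gene Chil3 (0.59 ± 0.30, edgeR adjusted p = 0.399) and the stefin gene Stfa1 (0.82 ± 1.23, 0.830), whose groups overlapped. Both have near-identical relatives that could share reads, and Stfa1 had 0 to 68 reads a library and turned negative under 3 alternatives. The 40 genes summed to 1059 to 1275 CPM in CUMS libraries, against 1759 to 2769.7 CPM in control libraries. Leaving out 1 library gave counts of 2, 0 and 3 without CUMS replicates 1, 2 and 3, and of 3, 1 and 2 without control replicates 1, 2 and 3. In the fit without CUMS replicate 2, 20 of these genes had an unadjusted p under 0.05, against 13.4% of all genes in that fit.

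The genes that fell were mostly surface receptors of mature cells, where 4 of 11 tested fell, against 0.946% of all genes tested. They were the C-type lectin receptors Clec4d (log2 fold change -1.24 ± 0.18, edgeR adjusted p = 0.0132) and Clec4e (-0.99 ± 0.21, 0.0460), Trem1, which amplifies inflammatory signals (-1.23 ± 0.23, 0.0276), and the formyl peptide receptor Fpr2 (-1.18 ± 0.24, 0.0416). Clec4d had 46.4, 39.5 and 41.1 CPM in CUMS replicates 1, 2 and 3, against 87.7, 131 and 81.7 CPM in control replicates 1, 2 and 3, with the CUMS libraries close together. Ly6g, the surface marker by which mouse neutrophils are usually sorted, was scarce at 3.31, 2.28 and 5.15 CPM in the CUMS libraries and 5.38, 6.63 and 3.67 CPM in the controls, and its groups overlapped. In 6 of the 11 receptors every CUMS library lay below every control library, against 11.9% of all genes tested. In the rest the groups overlapped. Among 14 tested of 15 other mature neutrophil genes, 2 fell, against the same 0.946% of all genes tested. These were Hdc, the enzyme that makes histamine (-1.08 ± 0.19, edgeR adjusted p = 0.0244), and Mxd1, a MYC antagonist (-0.97 ± 0.18, 0.0307). Of these 6 genes, Clec4d passed in 5 of the 6 fits that left out 1 library and lost its call without CUMS replicate 2 (edgeR's adjusted p was then 0.0665), Trem1 passed only without CUMS replicate 3 or control replicate 3, Hdc only without CUMS replicate 3 or control replicate 1, and Mxd1 only without control replicate 1. Clec4e and Fpr2 passed in none, with edgeR adjusted p-values of 0.0545 to 0.251 and of 0.0666 to 0.255, and both were lost with limma voom (0.0713 and 0.0574). Clec4e was also lost with library size alone as the scaling (0.0546).

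Granule genes of early precursors were nearly unread. Of 6 primary granule genes none reached the filter: Elane, Bpi and Ms4a3 had no read in any library, and Mpo, Prtn3 and Ctsg together gave at most 0.793 CPM in a library. Secondary and tertiary granule genes were present at very different levels. The lactoferrin gene Ltf had only 10, 15 and 0 reads in the CUMS libraries against 49, 85 and 18 in the controls. None of the 8 genes passed edgeR's test over all genes, and 5 had an unadjusted p under 0.05, against 15.3% of all genes. DESeq2 called 3 and limma voom 1, where they called 4.58% and 3.54% of all genes. Mmp9, the gelatinase of tertiary granules, had 227, 312 and 348 CPM in CUMS replicates 1, 2 and 3, against 446, 639 and 404 CPM in control replicates 1, 2 and 3. Its groups did not overlap and its log2 fold change was -0.75 ± 0.19 (edgeR adjusted p = 0.0795). Mmp8, neutrophil collagenase, stood at -0.87 ± 0.22 on the log2 scale (edgeR adjusted p = 0.0831). Over the list, the median was -0.81 on the log2 scale, and for 5 of the 8 genes the CUMS libraries lay below all controls, against 11.9% of all genes tested. With DESeq2, 17 genes of the 4 lists passed, and with limma voom 8.

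Genes acting with the 10 were examined by role, and their counts stand beside the same shares of all genes: 15.3% at an unadjusted p under 0.05, 4.58% called by DESeq2 and 3.54% by limma voom. Of the 5 ligands of CXCR2 only Cxcl2 passed the filter, with 10.3, 12.7 and 18.1 CPM in CUMS replicates 1, 2 and 3, against 20.2, 27.8 and 28.2 CPM in control replicates 1, 2 and 3. Its groups were separate, and at -0.89 ± 0.24 on the log2 scale it missed the threshold (edgeR adjusted p = 0.0990). Csf3, which encodes G-CSF, had no read in any library. Of 8 tested genes of granulocyte transcription factors and G-CSF signalling none passed edgeR's test, with 5 at an unadjusted p under 0.05, 1 called by DESeq2 and 0 by limma voom. On the log2 scale Cebpd stood at -0.94 ± 0.25 (edgeR adjusted p = 0.0959), Cebpb -0.72 ± 0.28, Spi1, which encodes PU.1, -0.61 ± 0.20, and Gfi1, a repressor also used by T cells, 0.47 ± 0.19. None of 9 tested interleukin 1 pathway genes passed edgeR's test, with 3 at an unadjusted p under 0.05, 2 called by DESeq2 and 0 by limma voom. The inflammasome sensor Nlrp3 had a log2 difference of -0.92 ± 0.29 (edgeR adjusted p = 0.148), and the receptor Il1r1 had 28, 7 and 0 reads in the CUMS libraries against 78, 90 and 152 in the controls (edgeR adjusted p = 0.126). Cyba and Ncf4, which encode subunits of the phagocyte NADPH oxidase, had log2 differences of -0.07 ± 0.16 (edgeR adjusted p = 0.895) and -0.13 ± 0.18 (edgeR adjusted p = 0.801), and neither passed. Of 4 receptors for the secreted products, Tlr4 (-0.78 ± 0.22), Ager (-1.20 ± 0.46), Slc22a17 (0.81 ± 0.67) and Cd163 (-0.42 ± 1.17), none passed with edgeR, DESeq2 or limma voom, and 2 had an unadjusted p under 0.05 in edgeR. Tlr4 and Ager bind calprotectin, Slc22a17 lipocalin 2, and Cd163 haptoglobin with haemoglobin. Cebpb and Cebpd overlap a gene on the opposite strand, as do Gfi1, Cyba and Trem1. The genes opposite Cebpb and Cebpd held 623 to 830 and 260 to 485 reads a library. Cebpb itself had 462 to 1415 reads and Cebpd 369 to 1188. The genes opposite Gfi1, Cyba and Trem1 held at most 18, 0 and 38 reads.

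Markers of other cells were read in the same libraries. The 9 T cell markers summed to 5086 to 5576 CPM in CUMS libraries, against 4320.1 to 4667 CPM in control libraries. Cd8a rose (log2 fold change 0.56 ± 0.09, edgeR adjusted p = 0.0225), the other 8 did not pass, and the median was 0.16. Among all 14054 genes tested, 51 were called higher. None of the 9 had a negative fold change, against 50.7% of all genes tested. In edgeR 4 of the 9 had an unadjusted p under 0.05, against 15.3% of all genes. Cd8a was lost without CUMS replicate 2, control replicate 1 or control replicate 2 (edgeR adjusted p = 0.0822, 0.0728 and 0.151). The 8 monocyte markers summed to 669 to 781 CPM in CUMS libraries, against 785 to 957 CPM in control libraries, with a median of -0.41. Every CUMS library lay below every control for 4 of the 8, against 11.9% of all genes tested, and above for 1. In edgeR 5 of the 8 had an unadjusted p under 0.05, against 15.3% of all genes. DESeq2 called 3 and limma voom 4, where they called 4.58% and 3.54% of all genes. With edgeR 2 of the 8 fell, where 0.946% of all genes tested were called lower. They were the lipopolysaccharide coreceptor gene Cd14 (-1.33 ± 0.27, edgeR adjusted p = 0.0376) and the chemokine receptor gene Ccr2 (-0.68 ± 0.14, 0.0376). Cd14 kept its call only without CUMS replicate 3, with edgeR adjusted p-values of 0.0393 to 0.253 over the 6 fits without 1 library, and Ccr2 in none of them, at 0.0555 to 0.158. Against these, the surface antigen gene Ly6c2 was higher in each CUMS library than in any control (0.23 ± 0.12, edgeR adjusted p = 0.390). The coagulation factor gene F13a1 had 0.32 ± 0.30 (edgeR adjusted p = 0.680), and neither gene passed. Ly6c2 alone gave 276 to 348 CPM of the monocyte marker sums in CUMS libraries, against 243 to 268 CPM in control libraries. Lyz2, lysozyme of monocytes and neutrophils alike, had -0.42 ± 0.16, and Csf1r, the receptor that sustains monocytes, -0.79 ± 0.20 (edgeR adjusted p = 0.0820). Csf1r, with 918 to 2654 reads a library, overlaps genes on both strands whose rows held 0 to 1134 reads. The 9 Kupffer cell markers were low, with Timd4 unread everywhere. They summed to 9.997 to 14.9 CPM in CUMS libraries, against 20.2 to 27.2 CPM in control libraries. Adgre1 made up most of these sums, at 7.86 to 14.9 CPM in CUMS libraries and 17.0 to 21.4 CPM in control libraries. None of 3 tested Kupffer cell markers passed with edgeR, DESeq2 or limma voom, and 1 had an unadjusted p under 0.05 in edgeR. The part of monocytes in the values of S100a8, S100a9 and Il1b was not tested, nor was that of the lower share of myeloid transcripts in the rise of Cd8a.

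**Figure D4:**
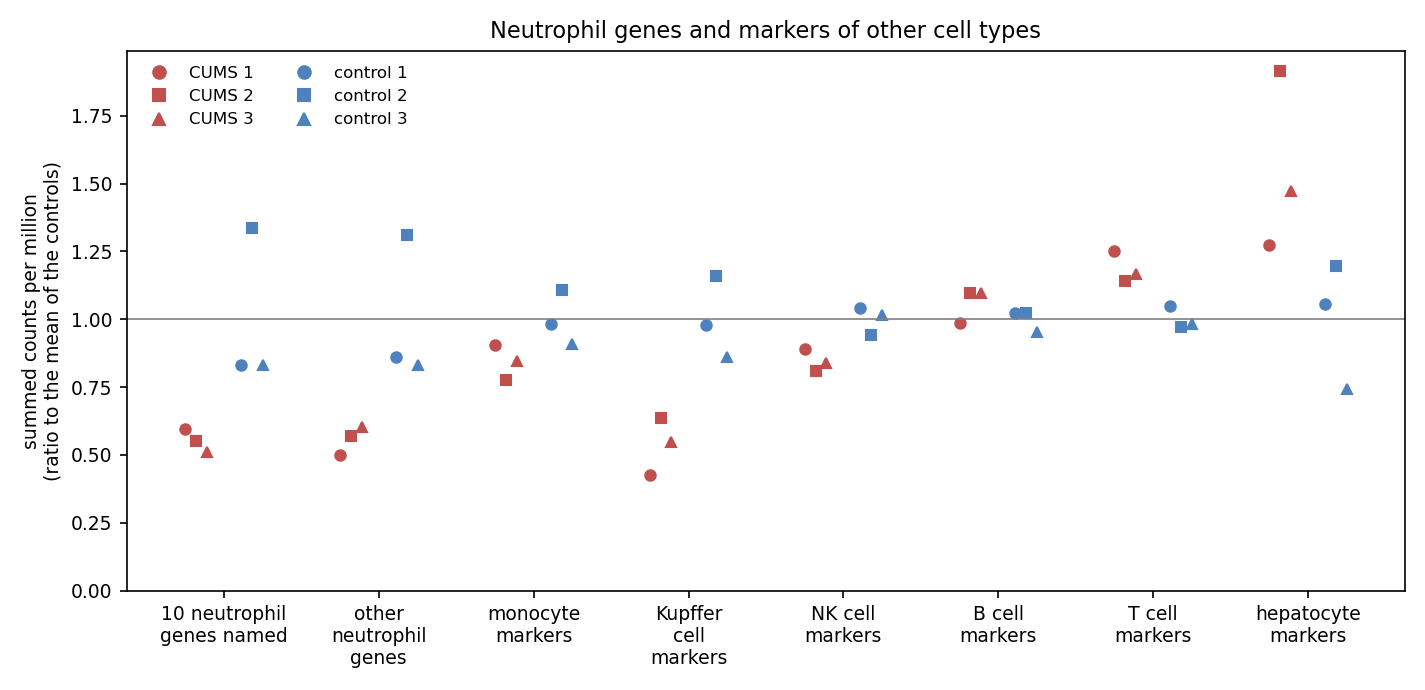
Summed CPM of 2 groups of neutrophil genes and 6 lists of markers of other cell types, each divided by the mean of the 3 control libraries (vertical axis, linear from 0); each point is a library. The 10 neutrophil genes summed to 2194 to 2558 CPM in CUMS libraries and 3564 to 5717 CPM in control libraries; T cell and hepatocyte markers are higher in each CUMS library.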

How the data were processed

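RNA of liver CD8+ T cells was extracted with TRIzol and turned into 6 libraries from fragmented mRNA with random primers, per the labels' protocols. The authors deposited raw read counts per gene, whole numbers without normalization, in mm10. The submitters' processing notes name fastp, HISAT2 2.0.5, featureCounts 1.5.0-p3 and DESeq2 1.20.0; the annotation release and strand setting were not given in the sources used. Per the file headers, the deposited table also holds gene coordinates and a length in bases for each gene, which scaled levels per kilobase.

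The test ran in R 4.3.3 with edgeR 4.0.16 over the 14054 genes kept by filterByExpr (TMM factors, glmQLFit in its legacy form, glmQLFTest, 3 CUMS against 3 control libraries, no covariate, two-sided, Benjamini-Hochberg adjustment over all genes tested, threshold 0.05). Each SE is the log2 fold change over the square root of F. With 3 libraries a group, exact permutation reaches no two-sided p under 0.1, and none was run. No 2 libraries of a group agreed within counting noise (chi-square per gene 9.27 to 33.5).

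The 10 genes and the lists were chosen with earlier results of these data known. Named genes are the 10, up to 4 of each list with the smallest p and any called, and the 6 nearest profiles (log2 CPM, prior count 2); Ly6g, Chil3, Stfa1, Ly6c2, F13a1 and genes with few or no reads lie outside that rule and were named after their values were seen. Alternatives were median-of-ratios factors, library size alone, no filter, a stricter filter (1 CPM or more in 3 libraries, mean counts of 50 or more), fits with DESeq2 1.42.0, limma 3.58.1 voom with sample weights, a replicate block, protein-coding genes only, each library left out in turn, and CUMS replicate 1 alone against the controls. The fit was tested on counts simulated from its own model, with no outlying library, and the outcome is not used as support here. The phagocyte NADPH oxidase list is reported only in part here. Figures used matplotlib 3.10.9.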

Additional observations from a re-analysis of the deposited data

How the results depend on the processing

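The 9 tested neutrophil genes had a negative log2 fold change under each of the 15 alternatives, and their median ran from -1.10 to -0.69; where groups do not overlap, leaving out a library cannot turn the sign. The number past the threshold was less stable than the direction. It was 4 of 9 as reported, with median-of-ratios factors and with library size alone, 8 with no filter, 7 with the stricter filter, with limma voom and with protein-coding genes only, 6 with DESeq2, and 0 to 4 when 1 library was left out. With CUMS replicate 1 alone against the controls it was 0 by edgeR, with 9 of 10 at an unadjusted p under 0.05 (1760 of all 15940 genes), and without CUMS replicate 2 it was also 0, again with 9 of 10 (13.4% of all genes). Over all genes, 184 were called as reported, 704 with no filter, 316 with the stricter filter, 644 with DESeq2, 497 with limma voom, 280 with protein-coding genes only, 9 to 178 without 1 library and 7 with CUMS replicate 1 alone. The cause of these differences was not tested.

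With a replicate block 71 genes passed in all, 2 of them among the 10, Cxcr2 and Il1b. Clec4e, Fpr2, Cd14, Ccr2 and Cd8a also lost their calls under the block. Deviations of same-numbered libraries from their group means correlated at 0.0137, -0.0358 and -0.0369 across genes. Only the replicate 1 libraries correlated best with their own number. Deviations within a group of 3 libraries balance out, so this check cannot exclude a pairing by replicate number. Of the other named genes, Cyba turned to a log2 fold change of 0.0373 without CUMS replicate 2 (lowest -0.23 without control replicate 3) and 0.0125 without control replicate 2, Ncf4 to 0.0210 without CUMS replicate 2 (lowest -0.26 without control replicate 3), Cd163 to 0.15 without CUMS replicate 3 (lowest -1.84 without CUMS replicate 2), and Slc22a17 to -0.20 with CUMS replicate 1 alone. Stfa1 turned to -1.76 with limma voom, -0.16 with the replicate block and -0.42 without CUMS replicate 3 (highest 1.40 without CUMS replicate 2). None of these passed. Few reads limit what can be said of Camp, Ngp, Ltf and the primary granule genes.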

Other observations

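Markers of other blood cells were read at low to moderate levels. The 5 B cell markers summed to 617 to 685 CPM in CUMS libraries, against 596 to 640.3 CPM in control libraries, and the groups overlapped. The 6 eosinophil, basophil and mast cell markers summed to 11.02 to 17.1 CPM in CUMS libraries, against 13.8 to 18.4 CPM in control libraries, again with overlap, as did the 6 platelet and erythroid markers at 9.31 to 12.4 CPM in CUMS libraries, against 6.51 to 12.3 CPM in control libraries. The 5 NK cell markers summed to 82.1 to 90.1 CPM in CUMS libraries, against 95.6 to 106 CPM in control libraries, lower in each CUMS library. Their median log2 fold change was -0.61. Eomes made up most of these sums and its groups overlapped, at 59.4 to 66.7 CPM in CUMS and 56.8 to 68.2 CPM in control libraries. No tested gene of these 4 lists passed edgeR's test over all genes. In the NK cell list 2 had an unadjusted p under 0.05 and DESeq2 and limma voom each called 1, and the other 3 lists had none of either, where 15.3% of all genes tested had an unadjusted p under 0.05.

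Liver acute phase genes other than Hp were close to the limit of detection. The serum amyloid genes Saa1, Saa2 and Saa3, orosomucoid genes Orm1 and Orm2 and the hemopexin gene Hpx together gave 2.15 to 6.91 CPM in CUMS libraries, against 3.44 to 6.68 CPM in control libraries; the groups overlapped, and neither of the 2 genes that passed the filter was called by edgeR, DESeq2 or limma voom or had an unadjusted p under 0.05.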
